A study of Rattus norvegicus with 18 samples.

Results

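The genes described here act in the G2 phase of the cell cycle and in mitosis. The list holds 45 genes, and 40 of them had a probe set on the array that the platform annotation assigns to that gene alone, of 14217 genes measured in all. Ndc80, Tpx2, Cdc25c, Ncapg and Anln had no such probe set and were not analysed here. Each gene was read from its brightest probe set. The tissue was mucosa scraped from the jejunum, a part of the small intestine, of male Sprague Dawley rats aged 6 to 8 weeks. Its RNA was measured on 18 Affymetrix rat arrays, 3 in each of 6 groups and lettered A to C. The groups were vehicle (0.5% methyl cellulose), palbociclib at 30 and at 100 mg/kg/day, abemaciclib at 36 and at 120 mg/kg/day, and ribociclib at 300 mg/kg/day, each given by gavage once a day. The 3 compounds are inhibitors of CDK4 and CDK6, which phosphorylate the retinoblastoma protein in G1, and the title of the study sets intestinal toxicity against that primary pharmacology. The design text gives 10 rats per group and dosing for 4 or 15 days, but the labels do not say which animal or duration an array stands for. The p-values therefore measure the spread between these arrays. Per the design text, rats on abemaciclib or ribociclib received a different vehicle, a citrate-buffered hydroxypropyl methylcellulose with Tween, so compound and vehicle cannot be told apart for those groups. The title of abemaciclib array B of the higher dose names 100 mg/kg/day and its treatment label 120, and the label was followed.

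In G2, cyclin A2 and the B-type cyclins accumulate and bind CDK1, whose activation by CDC25 phosphatases drives entry into mitosis. Polo-like and Aurora kinases build the spindle, the spindle checkpoint holds back the anaphase-promoting complex until every kinetochore is attached, and CDC20 and UBE2C then let that complex destroy cyclin B and securin. In the intestine these genes are active in the dividing cells of the crypts, and differentiated cells of the villi hardly use them. Their transcription peaks late in the cycle, through promoters that carry a CHR element (cell cycle genes homology region), read by the MuvB complex with B-MYB and FOXM1, and CCAAT boxes, read by NF-Y.

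Promoter windows of 300 bases, 250 before and 50 after the annotated start, were available for 39 of the 45 genes from RefSeq (build GRCr8). The 150 bases before the start are shown, 5′ to 3′ on the strand of the gene, for 4 genes of mitotic entry and for Mtfr2 and Haus6, which rose at the lower abemaciclib dose too. Cdk1 and Haus6 were added to the set after their values were seen. Capitals mark CHR elements, CCAAT boxes and E2F sites, each searched on both strands. A CHR was TTTGAA or the variant TTCGAA. On the opposite strand the CCAAT letters read ATTGG. An E2F site was TTTCCCGC, TTTGGCGC, TTTGCCGC or TTTCGCGC. Only TTCGAA reads the same on both strands, and no letters of 1 motif hold another.
Cdk1 (chr20:19265143-19265292, plus strand): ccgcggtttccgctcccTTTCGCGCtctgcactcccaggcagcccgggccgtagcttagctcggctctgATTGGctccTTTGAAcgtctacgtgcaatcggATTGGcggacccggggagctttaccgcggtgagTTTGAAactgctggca
Ccnb1 (chr2:33655226-33655375, minus strand): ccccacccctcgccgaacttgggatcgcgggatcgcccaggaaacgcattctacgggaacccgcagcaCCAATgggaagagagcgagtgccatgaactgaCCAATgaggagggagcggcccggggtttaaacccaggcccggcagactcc
Ccnb2 (chr8:79981659-79981808, minus strand): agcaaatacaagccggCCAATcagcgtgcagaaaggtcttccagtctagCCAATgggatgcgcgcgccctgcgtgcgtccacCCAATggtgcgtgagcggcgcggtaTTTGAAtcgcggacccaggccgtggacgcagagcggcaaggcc
Cdc25b (chr3:138860023-138860172, plus strand): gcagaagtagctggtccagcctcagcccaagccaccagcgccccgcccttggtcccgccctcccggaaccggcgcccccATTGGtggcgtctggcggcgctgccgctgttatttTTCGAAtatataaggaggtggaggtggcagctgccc
Mtfr2 (chr1:16942664-16942813, plus strand): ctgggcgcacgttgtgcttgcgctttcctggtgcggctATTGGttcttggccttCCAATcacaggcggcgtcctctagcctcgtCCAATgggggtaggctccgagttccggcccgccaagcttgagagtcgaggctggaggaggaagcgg
Haus6 (chr5:106199073-106199222, minus strand): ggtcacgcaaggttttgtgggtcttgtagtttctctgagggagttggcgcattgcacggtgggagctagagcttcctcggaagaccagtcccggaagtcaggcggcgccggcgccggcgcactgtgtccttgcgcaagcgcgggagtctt

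In Ccnb2, 3 CCAAT boxes were followed by a TTTGAA that began at position -43 from the start, and Cdk1 held TTTGAA at positions -72 and -16. Ccnb1 had 2 CCAAT boxes, at positions -82 and -50, and no CHR letters in its window. Mtfr2 likewise held 3 CCAAT boxes and no CHR, and the window of Haus6 held none of the motifs. The Haus6 window lay inside the gene as annotated, whose 5′ end is at position 106201503, so the sequence at that end was not searched. A CHR was found in 29 of the 39 windows (74.4%), against 19.7% of all 33469 windows in the table. A CCAAT box was found in 30 (76.9%, against 37.5% of all windows), and both motifs in 24 (61.5%, against 7.95%). An E2F site of these letters was found in 1 window, that of Cdk1 (2.56%, against 2.14% of all). A match of letters is no shown site, and no match says only that these letters are not in the window.

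Values are deposited log2 signals, so a difference of 1 is a doubling. Array medians lay between 5.41 and 5.51, and no pair of arrays held identical values (pair correlations 0.918 to 0.993). The vehicle mean of 15 of the 40 genes lay below the highest array median, and that of 2 genes did so with abemaciclib at 120 mg/kg/day. Detection calls were not used, so a fold against these low signals rests on values not shown to be above background. Markers of the intestinal epithelium were high on every array: the mean log2 signal of 10 such genes lay between 12.32 and 12.69. Some arrays stood apart from others of their group in the genes described here. Abemaciclib array C at 36 mg/kg/day was the highest of its group for 38 of 40 genes, ribociclib array A for 39 and vehicle array B for 36, while palbociclib array A at 100 mg/kg/day was the lowest for 36.

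With abemaciclib at 120 mg/kg/day, genes of every step from mitotic entry to cytokinesis rose together. Of 40 genes, 36 were higher than with vehicle and 0 were lower (limma, adjusted p under 0.05), where 9.6% of all genes were higher and 8.41% lower. The median log2 difference of the 40 genes was 2.37, a 5.16-fold change, against -0.02 over all genes, and the 40 differences ran from 0.32 for Cdc25b to 3.72 for Ccna2. All 3 arrays lay above all 3 vehicle arrays for 39 of the 40 genes, and for 18.6% of all genes. Haus6, Mtfr2, Shcbp1 and Cdca3 belong to the list but were already known as large changes of these data. Without them 32 of 36 genes were higher, with a median of 2.27. Leaving out any single array of either group gave 34 to 37 genes and medians of 2.26 to 2.53; without array B, the one with the 2 dose labels, 36 were higher.

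The 3′ minus 5′ log2 difference of the beta-actin control probe sets, a measure of RNA degradation, lay between 0.86 and 1.05 on these 3 arrays and between 0.57 and 0.79 on the vehicle arrays. With that measure in the fit, 34 of the 40 genes were higher. Its ranges do not overlap between the groups compared, so that fit cannot fully separate RNA quality from treatment. In a bulk sample, more cells in a given phase of the cycle and more RNA per cell cannot be told apart.

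Seen array by array, the median of the 40 genes relative to the vehicle mean was 2.83, 2.07 and 2.29 for abemaciclib arrays A, B and C at 120 mg/kg/day. The lower dose gave -0.12, -0.08 and 1.00, and with ribociclib 1.16, -0.30 and -0.53. Palbociclib gave -0.46, -0.28 and -0.26 at the lower dose and -0.36, 0.19 and 0.27 at the higher. The vehicle arrays themselves gave -0.19, 0.36 and -0.14. The higher abemaciclib dose thus had the 3 highest arrays of the 18, and the next were ribociclib array A and abemaciclib array C at the lower dose.

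**Figure D1:**
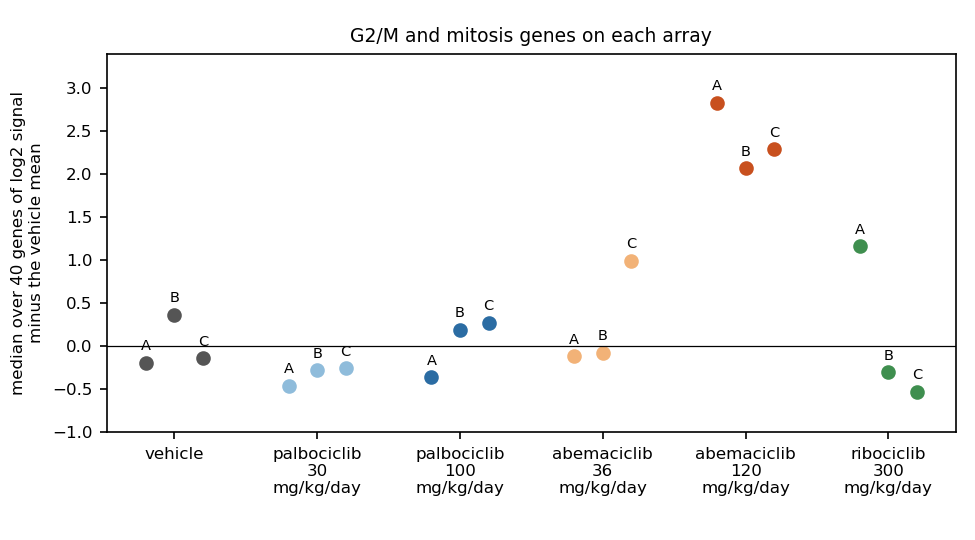
Median over the 40 measured G2/M and mitosis genes of the log2 signal minus the vehicle mean (y axis), with 1 point per array, lettered A to C, in each of the 6 groups (x axis, dose in mg/kg/day). The 3 arrays of abemaciclib at 120 mg/kg/day lie between 2.07 and 2.83 and every other array at or below 1.16.

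**Figure D2:**
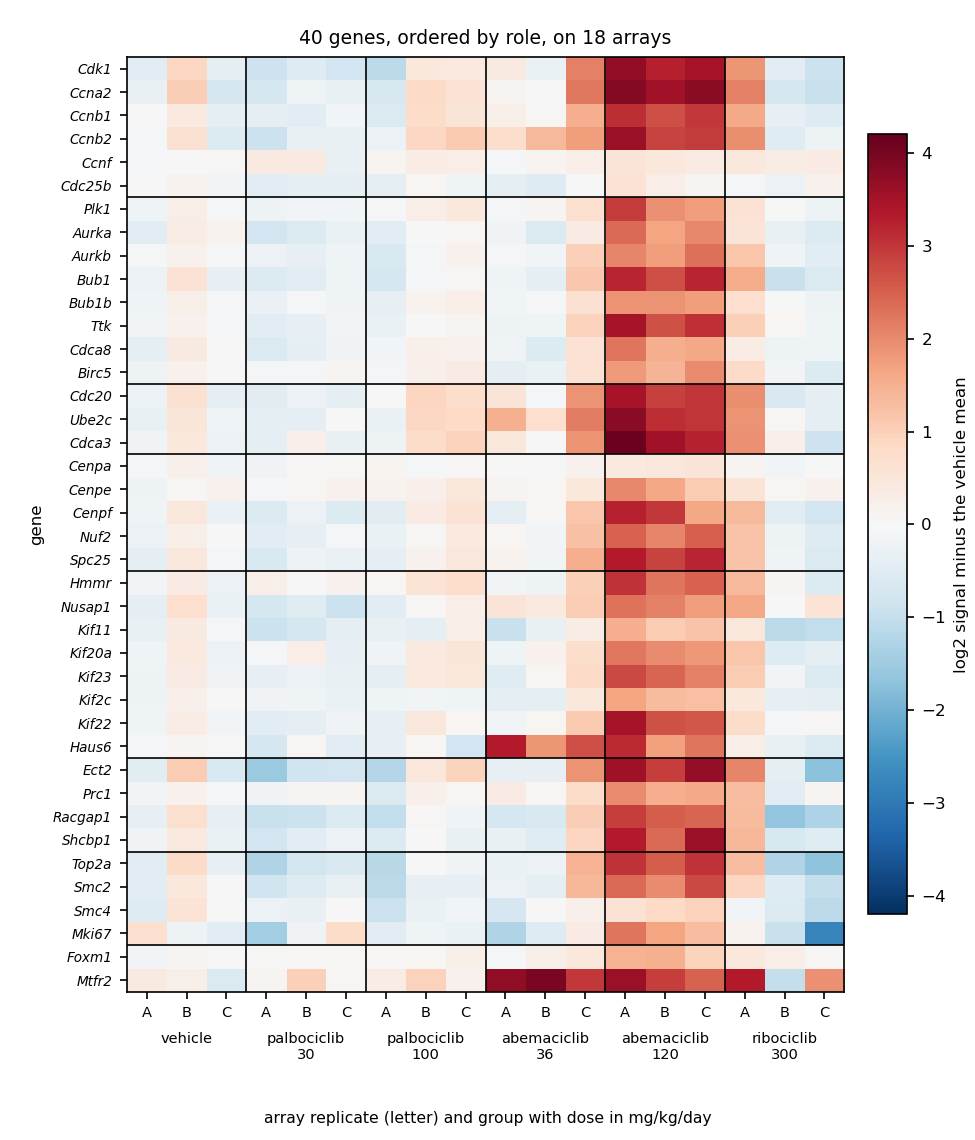
Log2 signal minus the vehicle mean of the same gene (colour scale) for each of 40 genes (rows, grouped by role with black lines) on each of 18 arrays (columns, grouped by treatment with the dose in mg/kg/day). Abemaciclib at 120 mg/kg/day is red in nearly every row, array C at 36 mg/kg/day and ribociclib array A are paler red in most rows, and Haus6 and Mtfr2 are red on all 3 arrays at 36 mg/kg/day.

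Among the cyclins, CDK1 and its phosphatases, 4 of 6 genes rose with abemaciclib at 120 mg/kg/day, with a group median log2 difference of 3.03. Ccnb1, which encodes the cyclin B1 partner of CDK1, had log2 signals of 9.03, 8.63 and 8.91 on those arrays and 5.92, 6.35 and 5.53 on the vehicle arrays. It lay at 6.19, 5.99 and 7.47 with abemaciclib at 36 mg/kg/day and at 7.51, 5.58 and 5.38 with ribociclib. Palbociclib gave 5.56, 5.49 and 5.81 at 30 mg/kg/day and 5.33, 6.70 and 6.46 at 100. Only the 3 arrays of the higher abemaciclib dose lay clear of the vehicle range in all replicates, 2.92 ± 0.50 (SE) above vehicle on the log2 scale or 7.59-fold (adjusted p = 7.72e-04).

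Ccnb2, the second B-type cyclin, had signals of 9.84, 9.04 and 9.14 at the higher abemaciclib dose and 6.15, 6.85 and 5.62 with vehicle. The lower dose put it at 6.94, 7.56 and 7.97, just above all vehicle arrays, and with ribociclib at 8.15, 5.71 and 6.00. Palbociclib arrays lay at 5.32, 5.90 and 5.90 and, at 100 mg/kg/day, at 5.95, 7.08 and 7.30. Its difference was 3.13 ± 0.53 (8.78-fold, adjusted p = 7.78e-04) at the higher abemaciclib dose and 1.28 ± 0.53 (adjusted p = 0.272) at the lower, which did not pass.

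Cdk1, the mitotic kinase itself, lay at 9.60, 9.14 and 9.37 against 5.44, 6.75 and 5.48 with vehicle, an 11.2-fold difference (adjusted p = 0.00179). Ccna2, the cyclin A2 that acts from S phase to early mitosis, lay at 8.53, 8.22 and 8.46 against 4.38, 5.70 and 3.96, the largest difference of the 40 genes at 3.72 ± 0.72 (13.2-fold, adjusted p = 0.00188). For both, the vehicle array B was the highest of its group and was still far below the abemaciclib arrays.

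Cdc25b and Ccnf were the exceptions of this group. Cdc25b, a phosphatase that activates cyclin-dependent kinases, lay at 5.12, 4.79 and 4.63 at the higher abemaciclib dose and at 4.5, 4.67 and 4.41 with vehicle, so the groups overlapped. Its difference was 0.32 with a 95% interval from -0.01 to 0.66 (adjusted p = 0.190), at a signal below the array medians throughout. Ccnf, whose cyclin F is the substrate-binding part of a ubiquitin ligase, lay at 7.06, 6.97 and 6.86 against 6.45, 6.55 and 6.57. Its arrays did not overlap with vehicle, but the difference was 0.44 (interval 0.05 to 0.82, adjusted p = 0.116).

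All 8 mitotic kinases and checkpoint genes rose, with a median log2 difference of 2.03. Ttk, which encodes the MPS1 kinase that starts checkpoint signalling at unattached kinetochores, had the smallest p of all 40 genes. Its signals were 7.70, 6.88 and 7.29 against 4.10, 4.40 and 4.13 with vehicle. The other treated arrays lay between 3.75 and 5.20, the highest being ribociclib array A and abemaciclib array C at 36 mg/kg/day (5.18). The difference was 3.08 ± 0.31 (8.44-fold, adjusted p = 2.13e-05). A second probe set of Ttk showed a smaller difference, 0.59 (adjusted p = 0.026). Bub1b, the checkpoint protein BUBR1, lay at 6.00, 6.01 and 5.86 against 3.94, 4.36 and 4.06, a difference of 1.83 ± 0.23 (3.57-fold, adjusted p = 1.09e-04). Birc5, the survivin subunit of the chromosomal passenger complex, had the largest p of the group. It lay at 7.27, 6.89 and 7.47 against 5.27, 5.66 and 5.51 and still rose by 1.73 ± 0.30 (3.32-fold, adjusted p = 8.97e-04).

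The remaining kinases moved by similar sizes. Plk1, the polo-like kinase, rose 4.60-fold, Aurka, the Aurora kinase of the spindle poles, 4.04-fold, and Aurkb, the Aurora kinase of the passenger complex, 4.14-fold. Bub1, which recruits checkpoint proteins to kinetochores, rose 8.21-fold, and Cdca8, the borealin subunit of the passenger complex, 3.5-fold. Adjusted p-values of these 5 genes lay between 1.37e-04 and 8.51e-04.

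The 3 genes that work with the anaphase-promoting complex or trigger mitotic entry rose with a median log2 difference of 3.30. Ube2c, the ubiquitin-conjugating enzyme of that complex, lay at 9.99, 9.30 and 9.19 with abemaciclib at 120 mg/kg/day and at 5.87, 6.70 and 6.01 with vehicle. At 36 mg/kg/day it lay at 7.68, 6.90 and 8.34, above all vehicle arrays, and with ribociclib at 8.09, 6.23 and 5.82. Palbociclib arrays lay at 5.81, 5.82 and 6.19 at 30 mg/kg/day and at 5.91, 7.05 and 7.04 at 100. The difference passed at the higher abemaciclib dose (3.30 ± 0.50, 9.84-fold, adjusted p = 3.81e-04) and not at the lower (1.45 ± 0.50, adjusted p = 0.167). Cdca3, which acts with a ubiquitin ligase to trigger entry into mitosis, lay at 10.80, 10.21 and 9.91 against 6.52, 7.11 and 6.42 with vehicle (12.3-fold, adjusted p = 4.97e-04). Cdc20, the activator of the complex that the checkpoint holds back, lay at 9.17, 8.59 and 8.70 against 5.48, 6.36 and 5.29 (8.64-fold, adjusted p = 0.00131).

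All 5 measured kinetochore and centromere genes rose, with a median of 2.34, but over a wide range. Cenpe, a kinetochore motor that moves chromosomes to the spindle equator, lay at 6.05, 5.65 and 5.09 against 3.81, 4.07 and 4.19 with vehicle (2.97-fold, adjusted p = 9.16e-05). Spc25, a subunit of the NDC80 complex that grips microtubules, lay at 9.14, 8.62 and 8.99 against 5.42, 6.26 and 5.71 (8.71-fold, adjusted p = 2.18e-04). Nuf2, of the same complex, rose 5.06-fold, and Cenpf, a large kinetochore protein, 6.11-fold. Cenpa, the histone H3 variant that marks centromeres, had the smallest passing difference of the list. It lay at 4.26, 4.33 and 4.40 against 3.81, 4.07 and 3.72, a difference of 0.46 ± 0.10 (1.38-fold, adjusted p = 0.00438), at a signal below the array medians in both groups.

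**Figure D3:**
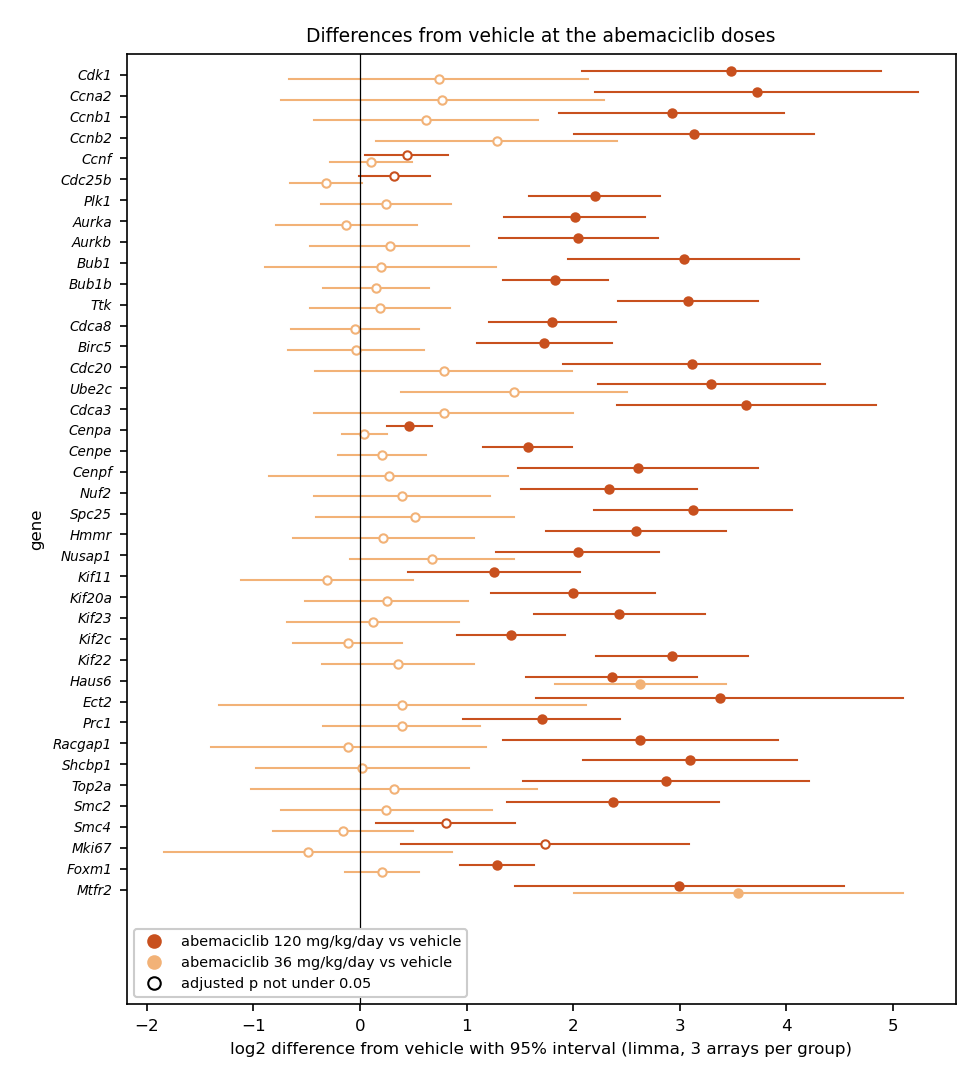
Log2 difference from vehicle (x axis) with its 95% interval from limma for 40 genes (y axis, ordered by role), at 120 (dark) and 36 mg/kg/day (light) of abemaciclib, 3 arrays per group. Filled points passed at an adjusted p under 0.05: 36 genes at 120 mg/kg/day, and Haus6 and Mtfr2 at 36 mg/kg/day.

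All 8 spindle and motor genes rose at 120 mg/kg/day, with a median log2 difference of 2.20. Kif22, a chromosome-arm motor, lay at 9.59, 8.76 and 8.71 against 5.90, 6.41 and 5.96 with vehicle (2.93 ± 0.34, 7.62-fold, adjusted p = 5.50e-05). Hmmr, which encodes a spindle protein also known as a hyaluronan receptor, lay at 7.59, 6.80 and 7.04 against 4.44, 4.91 and 4.30 (6.03-fold, adjusted p = 4.09e-04). Kif11, the motor that pushes spindle poles apart, had the largest p. Its signals were 7.88, 7.41 and 7.56 against 6.04, 6.73 and 6.31, a difference of 1.26 ± 0.38 (2.39-fold, adjusted p = 0.0308), and it no longer passed when vehicle array A or C, or abemaciclib array A or C, was left out, or with the actin measure in the fit. Nusap1, a microtubule-bundling protein, rose 4.12-fold. Of the other kinesins, Kif20a and Kif23, which serve the central spindle, rose 3.99-fold and 5.41-fold, and Kif2c, which takes microtubules apart, 2.67-fold.

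The 4 measured cytokinesis genes rose, with a median of 2.86. Shcbp1, a partner of the central spindle complex, lay at 7.67, 6.71 and 7.96 against 4.21, 4.76 and 4.06 (8.56-fold, adjusted p = 3.91e-04). Prc1, which bundles the microtubules of the central spindle, lay at 9.46, 9.01 and 9.08 against 7.38, 7.67 and 7.40 (3.26-fold, adjusted p = 0.00297). Ect2, the exchange factor that switches on RhoA at the division site, lay at 9.22, 8.57 and 9.35 against 5.23, 6.75 and 5.02 (10.4-fold, adjusted p = 0.00857). Racgap1, its activating partner, rose 6.19-fold. Ect2 had the largest p of the group despite the largest fold. Its SD was 0.94 among the vehicle arrays and 1.91 among the ribociclib arrays, and the fit pooled the spread of all 6 groups.

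Of the chromosome structure genes, 2 of 4 rose. Smc2, a core subunit of condensin, lay at 6.84, 6.43 and 7.22 against 4.00, 4.91 and 4.46 with vehicle (5.19-fold, adjusted p = 0.00227). Top2a, the topoisomerase that untangles sister chromatids, lay at 9.61, 9.11 and 9.60 against 6.11, 7.37 and 6.22 (7.32-fold, adjusted p = 0.00495). On the remaining treated arrays Top2a ran from 4.87 with ribociclib array C to 8.04 with abemaciclib array C at 36 mg/kg/day.

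Smc4 and Mki67 did not pass, although their 3 abemaciclib arrays lay above all other arrays. Smc4, the second core subunit of condensin, lay at 6.43, 6.66 and 6.78 against 5.29, 6.38 and 5.79, a difference of 0.80 (interval 0.15 to 1.46, adjusted p = 0.0858), and passed without vehicle array B (adjusted p = 0.0341). Mki67, whose Ki-67 protein coats mitotic chromosomes and is the usual stain for cycling cells, lay at 10.47, 9.90 and 9.51 against 8.90, 8.01 and 7.78. Its difference was 1.74 (interval 0.39 to 3.08, adjusted p = 0.0712). On the other arrays it lay at 6.97, 7.68 and 8.57 with abemaciclib at 36 mg/kg/day and at 8.38, 7.28 and 5.43 with ribociclib. Palbociclib gave 6.78, 8.07 and 9.0 at 30 mg/kg/day and 7.74, 8.06 and 7.94 at 100. The arrays of Mki67 spread widely, with group SDs between 0.16 and 1.49.

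Foxm1, the transcription factor that drives many of these promoters, rose as well. It lay at 6.57, 6.61 and 6.06 with abemaciclib at 120 mg/kg/day against 5.01, 5.23 and 5.13 with vehicle, a difference of 1.29 ± 0.17 (2.44-fold, adjusted p = 1.10e-04). With 36 mg/kg/day it lay at 5.06, 5.36 and 5.56 and with ribociclib at 5.56, 5.4 and 5.17. Palbociclib arrays lay between 5.16 and 5.36. Outside the higher abemaciclib dose the whole range was thus 5.01 to 5.56.

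**Figure D4:**
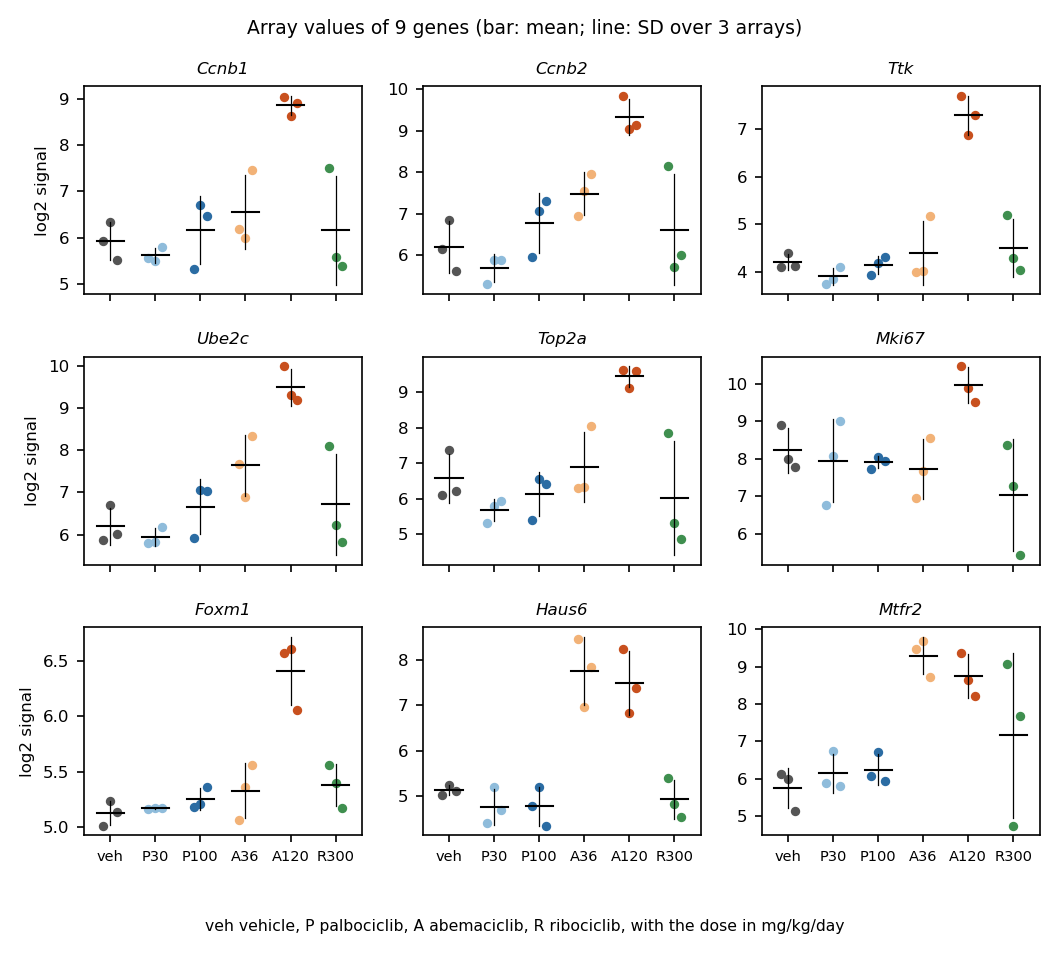
Log2 signal (y axis, with its own range in each panel, not starting at 0) of 9 genes on the 3 arrays of each group (points), with the mean (bar) and SD (line). Ccnb1, Ttk, Top2a, Mki67 and Foxm1 lie wholly above vehicle at abemaciclib 120 mg/kg/day alone. Ccnb2, Ube2c, Haus6 and Mtfr2 do so at both abemaciclib doses, and ribociclib array A is high in most panels. At 36 mg/kg/day 7.95% of all genes lay wholly above vehicle, and Ccnb2 and Ube2c did not pass in limma.

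At 36 mg/kg/day of abemaciclib, 2 of 40 genes were higher than with vehicle and 0 lower, where 0.499% of all genes were higher and 1.58% lower. These were Haus6 and Mtfr2, both among the 4 genes already known as large changes, and 0 of the 36 genes other than those 4 passed. The median log2 difference of the 40 genes was 0.25, from -0.49 for Mki67 to 3.55 for Mtfr2, against 0.01 over all genes. All 3 arrays lay above all vehicle arrays for 4 genes, Ccnb2, Ube2c, Haus6 and Mtfr2, and for 7.95% of all genes. Without array C, which lay above all vehicle arrays for 35 of the 40 genes, the median was -0.06 and the same count of 2 genes passed, and without vehicle array B the median was 0.43 and 1 gene passed, Haus6. Array C had an actin 3′ minus 5′ difference of 0.80, against 0.57 to 0.79 with vehicle. Its mean signal of 8 crypt and stem cell markers was 6.23, against 5.11 to 5.43 with vehicle. Arrays A and B lay at 5.81 and 5.72 for these markers, with mitotic medians of -0.12 and -0.08. The part of either in the result was not tested.

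Haus6 encodes a subunit of augmin, the complex that lets new microtubules branch from those of the spindle. It lay at 8.47, 6.97 and 7.84 at 36 mg/kg/day, at 8.25, 6.84 and 7.39 at 120, and at 5.03, 5.25 and 5.10 with vehicle. Palbociclib arrays lay at 4.41, 5.19 and 4.69 and, at 100 mg/kg/day, at 4.77, 5.20 and 4.34, and ribociclib arrays at 5.4, 4.83 and 4.54. The abemaciclib arrays of both doses were the only 6 above 5.4. The rise was 6.20-fold at the lower dose (2.63 ± 0.38, adjusted p = 0.00290) and 5.14-fold at the higher (2.36 ± 0.38, adjusted p = 5.47e-04), and the doses differed by -0.27 (interval -1.08 to 0.54). A second probe set of Haus6 did not follow: its differences were 0.24 (adjusted p = 0.330) and 0.12 (adjusted p = 0.523).

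Mtfr2 encodes a mitochondrial fission regulator and was kept with the mitotic genes as listed. It lay at 9.49, 9.69 and 8.73 at 36 mg/kg/day and at 9.38, 8.64 and 8.22 at 120, against 6.12, 6.00 and 5.13 with vehicle. Ribociclib arrays were split, at 9.07, 4.74 and 7.67, and palbociclib arrays lay between 5.80 and 6.75. The rise was 11.7-fold at the lower dose (3.55 ± 0.73, adjusted p = 0.0203) and 7.98-fold at the higher (3.0 ± 0.73, adjusted p = 0.00910). It no longer passed at the lower dose when any vehicle array, or abemaciclib array A, was left out, nor at the higher without abemaciclib array A or with the actin measure in the fit. Its second probe set moved the same way, by 2.53 (adjusted p = 0.0216) and 2.08 (adjusted p = 0.0112).

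Ribociclib at 300 mg/kg/day called 0 of 40 genes in limma, where 0.999% of all genes were higher and 2.74% lower. None of the 40 had an unadjusted p under 0.05, against 2869 of all 14217. The median log2 difference was 0.14, from -1.19 for Mki67 to 1.41 for Mtfr2. Array A lay above all vehicle arrays for 35 of 40 genes, while arrays B and C lay below all of them for 19 and 28. On array A the mean log2 signal of 8 smooth muscle markers was 7.58 and of 8 fibroblast markers 8.54, against 5.67 to 6.00 and 6.59 to 7.45 with vehicle. Its mean was 6.38 for 6 B cell and germinal centre markers (vehicle 5.64 to 6.14) and 5.59 for 8 crypt and stem cell markers (vehicle 5.11 to 5.43). Arrays B and C lay at 5.575 and 5.04 for the crypt markers, with mitotic medians of -0.30 and -0.53. The part of these cell types in the result was not tested. Without array A the median was -0.36 and Kif11 was lower (-1.09, adjusted p = 0.0447). Without array B, Mtfr2 was higher (2.62, adjusted p = 0.00728). Without vehicle array B the median was 0.29 and 0 genes passed.

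Palbociclib called 0 of 40 genes at either dose, where 0.0% of all genes were higher or lower in limma. At 100 mg/kg/day the median was 0.06, with differences from -0.61 to 0.57, and 0 genes had an unadjusted p under 0.05, against 1023 of all 14217. At 30 mg/kg/day the median was -0.31, with differences from -1.06 to 0.39, and 1 gene, Cdc25b, had an unadjusted p under 0.05, against 357 of all genes. Its arrays lay at 4.08, 4.10 and 4.11, against 4.41 to 4.67 with vehicle, a difference of -0.43 (interval -0.76 to -0.09, adjusted p = 0.998). All 3 arrays lay below all vehicle arrays for 10 genes, Cdk1, Cdc25b, Aurkb, Ttk, Nusap1, Kif11, Kif23, Ect2, Racgap1 and Top2a, and for 6.39% of all genes, and none of these differences passed. The 2 palbociclib doses differed for 0 of 40 genes (0.0% of all genes), with a median of 0.34 toward the higher dose and 0 unadjusted p-values under 0.05, against 619 over all genes. Leaving out array A of the higher dose gave a median of 0.22 against vehicle and 0.51 against the lower dose, with 0 genes called in either. Leaving out vehicle array B gave medians of 0.24 at 100 mg/kg/day and -0.14 at 30, again with 0 genes called. All comparisons with vehicle share the same 3 vehicle arrays.

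The higher abemaciclib dose was above the lower for 36 of 40 genes, and below it for 0, where 4.82% of all genes were higher and 2.77% lower, with a median log2 difference of 1.95. Ttk differed most clearly (adjusted p = 1.16e-04), though its second probe set did not pass (0.56, adjusted p = 0.061). Cdk1 lay 6.70-fold (2.75 ± 0.66, adjusted p = 0.0182) and Mki67 4.67-fold (2.22 ± 0.64, adjusted p = 0.0424) above the lower dose. Haus6, Mtfr2, Ccnf (0.33) and Smc4 (0.96) did not differ past the threshold. This count moved with single arrays. It was 19 without array A or without array B of the lower dose, 21 without array A of the higher dose and 37 without array C of the lower dose, and 19 genes passed in every fit that left out 1 array. With the actin measure in the fit it was 19. Same-letter arrays of these 2 groups deviated together, and with the letter as a block it was 33, with Ccnb2 (adjusted p = 0.0628), Ect2 (adjusted p = 0.0508) and Mki67 (adjusted p = 0.0610) no longer passing.

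Doses differ between the compounds, so the treated groups were compared as they were given. Abemaciclib at 120 mg/kg/day was above ribociclib at 300 mg/kg/day for 37 of 40 genes, where 17.2% of all genes were higher and 10.0% lower, with a median of 2.30. The exceptions were Ccnf (0.07, interval -0.32 to 0.46), Cdc25b (0.35, interval 0.02 to 0.69, adjusted p = 0.108) and Mtfr2 (1.59, interval 0.05 to 3.13, adjusted p = 0.115). Against palbociclib at 100 mg/kg/day it was higher for 39 of 40, all but Ccnf (0.20, interval -0.19 to 0.58), where 11.4% of all genes were higher and 6.86% lower, with a median of 2.28. Without ribociclib array A, 38 genes lay above ribociclib, and 33 did with the actin measure in the fit. Against palbociclib, 33 genes passed without palbociclib array A, with a median of 2.06, where Cdc25b, Kif11, Ect2, Smc4, Mki67 and Mtfr2 no longer did, and 29 passed with the actin measure. Across the 6 groups, 39 of 40 genes differed in the F test, where 22.6% of all genes did, and Ccnf did not (adjusted p = 0.353).

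Other genes of cell division rose at 120 mg/kg/day of abemaciclib as well, where 9.6% of all genes were higher and 8.41% lower. Of 61 further measured mitosis genes, 47 rose and 0 fell, with a median log2 difference of 1.58. Ska3, of the kinetochore complex that tracks microtubule ends, rose 3.08-fold (adjusted p = 1.76e-05), and Zwilch, of the complex that brings dynein to kinetochores, 8.81-fold (adjusted p = 2.13e-05). Of 26 replication genes, 21 rose and 0 fell, with a median of 1.53, among them Tk1, the thymidine kinase of S phase (5.49-fold, adjusted p = 8.45e-05), and Mcm2, of the replicative helicase (3.58-fold, adjusted p = 1.64e-04). Neither list held a gene that fell. With 36 mg/kg/day 0 of the 61 mitosis genes passed, 5 of them having an unadjusted p under 0.05 against 1960 of all 14217 genes. At that dose 2 of 26 replication genes rose, where 0.499% of all genes were higher and 1.58% lower. They were Mcm10, a helicase cofactor (12.5-fold, adjusted p = 0.0221), and Orc1, of the origin recognition complex (1.53-fold, adjusted p = 0.0236).

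Of 17 anaphase-promoting complex genes, 5 rose and 0 fell at 120 mg/kg/day, where 9.6% of all genes were higher and 8.41% lower. Their median log2 difference was 0.40. The 5 were led by Fbxo5, which encodes the inhibitor EMI1 (1.58-fold, adjusted p = 0.00555), and Cdc23, a core subunit (1.78-fold, adjusted p = 0.0177). Of 8 inhibitors of mitotic entry, 3 rose and 0 fell. They were the checkpoint kinases Chek1 (2.28-fold, adjusted p = 0.0109) and Chek2 (1.40-fold, adjusted p = 0.0252), and Pkmyt1, which phosphorylates CDK1 (1.45-fold, adjusted p = 0.0417). Chek1 also rose at 36 mg/kg/day (2.33-fold, adjusted p = 0.0451).

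Of 13 genes of the DREAM and MuvB complexes, 5 rose and 1 fell at 120 mg/kg/day, where 9.6% of all genes were higher and 8.41% lower. E2f5, a repressor E2F, rose 2.83-fold (adjusted p = 0.00322), Mybl1, a MYB factor, 1.27-fold (adjusted p = 0.00891), and Mybl2, the B-MYB that joins MuvB, 1.83-fold (adjusted p = 0.0180). Tfdp2, a dimerisation partner of the E2F factors, differed by -2.11 (adjusted p = 1.89e-04). Lin54, the MuvB subunit that reads the CHR, lay -0.72 from vehicle (adjusted p = 0.0951) and was lower at 36 mg/kg/day (-1.26, adjusted p = 0.0306). Medians by promoter letters lay close. The 25 measured genes with a CHR had a median difference of 2.38 at 120 mg/kg/day and 10 without one 2.19, and 28 with a CCAAT box 2.41 and 7 without one 2.34.

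Of the 5 other measured augmin subunits, the partners of Haus6, 3 rose at 120 mg/kg/day, where 9.6% of all genes were higher. They were Haus5 (1.49-fold, adjusted p = 0.00621), Haus4 (2.32-fold, adjusted p = 0.0130) and Haus7 (1.73-fold, adjusted p = 0.0265). Haus8 went the other way at this dose, with a difference of -0.82 and all its arrays below vehicle, but did not pass, and neither did Haus1. At 36 mg/kg/day, where Haus6 lay 6.20-fold higher, none of the 5 rose and Haus8 was lower (-1.55, adjusted p = 0.0203), as were 1.58% of all genes. Haus8 was also lower with ribociclib (-1.21, adjusted p = 0.0467), and Haus1, Haus4, Haus5 and Haus7 differed by -0.59 to 0.04 at the lower abemaciclib dose.

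Marker lists of several cell types in the scrapings also moved at 120 mg/kg/day, where 9.6% of all genes were higher and 8.41% lower. Of 8 crypt and stem cell markers, 7 rose and 0 fell. Their mean log2 signal lay between 6.28 and 7.07, against 5.11 to 5.43 with vehicle, and single differences ran from 0.004 to 4.03. With vehicle, 3 of the 8 lay above the highest array median, and 5 did at this dose. Lgr5, the receptor of crypt base stem cells, rose 1.63-fold (adjusted p = 0.00376), at a mean signal of 4.095 over all arrays, below the array medians. Of 11 T and NK cell markers, 9 fell and 0 rose, with mean signals of 5.28 to 6.00 against 7.69 to 8.00. B cell and germinal centre markers, the other dividing population a scraping can hold, lay between 4.77 and 5.59 against 5.64 to 6.14, with 0 of 6 higher and Gcsam, a germinal centre gene, lower (-1.36, adjusted p = 0.0318). Of 10 macrophage and dendritic cell markers, 5 fell and 0 rose, with mean signals of 5.77 to 6.22 against 6.71 to 7.13. Of 8 goblet cell markers, 2 rose and 1 fell, with mean signals of 12.63 to 12.91 against 11.88 to 12.16. Of 11 enterocyte markers, 1 fell and 0 rose, a share near that of all genes, although their mean signals of 12.82 to 13.30 lay below the 13.35 to 13.59 of vehicle. Smooth muscle markers (1 of 8 higher) lay between 5.55 and 6.61 against 5.67 to 6.00, and fibroblast markers (0 of 8 called) between 5.31 and 8.01 against 6.59 to 7.45. The part of these cell types in the rise of the mitotic genes was not tested.

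Probe sets of the same gene mostly moved the same way, but by different sizes. Among the 40 genes, 15 had more than 1 probe set, with 18 further probe sets in all, of which 13 were higher with abemaciclib at 120 mg/kg/day and 0 had a negative difference. The second probe set of Foxm1 differed by 0.16 (adjusted p = 0.334), that of Kif23 by 0.28 (adjusted p = 0.192), and 2 of the 4 further probe sets of Cdc20 by 0.34 and 0.01 without passing. Smc4, which did not pass with its brightest probe set, passed with its second (0.53, adjusted p = 0.0136). Second probe sets of Ttk, Kif2c and Shcbp1 passed at 0.59, 0.44 and 1.34, against 3.08, 1.42 and 3.10 for the brightest. For Cdc20, 2 further ones passed at 0.72 and 0.94, against 3.11. Only for Ccnb1 was the further difference larger (3.31 against 2.92). The brightest was chosen over all arrays, those at 120 mg/kg/day among them, so the folds depend on that choice.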

How the data were processed

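The submitters' processing notes name RMA and 2 programs, Transcriptome Analysis Console and Affymetrix Expression Console, with no version or setting. RMA in its common form equalises the distribution of signal over arrays, which would hide a change in total RNA per cell. The authors deposited log2 values, 1 per probe set and array. Arrays carry no read counts, and their number limits the precision.

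The platform annotation gave a single gene symbol to 20826 of 31099 probe sets and more than 1 symbol to 436. A further 9780 had no name there, and 57 were controls. The RefSeq gene table matched 20758 of the named probe sets by Entrez identifier, with 0 renamed. The brightest probe set stood for each of the 14217 genes. Groups came from the treatment label.

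With limma 3.58.1 under R 4.3.3, group means were fitted for all genes over the 18 arrays. That left 12 residual degrees of freedom, and eBayes used its intensity trend. Tests were two-sided, with Benjamini-Hochberg adjustment over all genes of a comparison and a threshold of 0.05. Intervals are 95% intervals of that fit. A fold is the antilog of a log2 difference. Tables and figures were made in Python 3.11.15 (pandas 2.3.3, numpy 2.4.6; matplotlib 3.10.9). The fit was tested on simulated data. Deviations from the group means of same-letter arrays correlated above 0.1 for all 3 letters only between the 2 abemaciclib groups (0.13, 0.59 and 0.30). That was read from the data and not from the labels. The main fit did not pair the letters, and the block fit gave each letter the same effect over all 18 arrays. Over all groups 19 of 45 same-letter pairs correlated above 0.1 (range -0.31 to 0.59).

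The members, lists and tests were chosen with earlier results of these data known. Signals of each array are given, in each role group, for the 2 genes with the smallest p and the 1 with the largest at 120 mg/kg/day of abemaciclib, and for genes called in another comparison with vehicle. Cdk1, Ccna2, Ccnf and Mki67 were added after their values were seen. From the other lists the 2 genes with the smallest p in each direction were named, and Pkmyt1, Mybl2, Lin54, Lgr5, Gcsam and the remaining augmin genes were added after their values were seen.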

Additional observations from a re-analysis of the deposited data

How the results depend on the processing

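The alternatives changed the scaling (quantile normalization repeated, or arrays set to 1 median), the genes (those in the lowest 30% by signal left out, probe sets averaged, or each probe set fitted alone) and the test (no intensity trend, a minimum fold of 1.5, or a fit of the compared groups only). Others added the actin covariate or the replicate letter as a block, or dropped each array. No difference of a called gene changed sign. The 36 genes higher with abemaciclib at 120 mg/kg/day were 29 of 32 without dim genes and 34 to 37 otherwise, and 34 of them passed with any single array left out, the others being Kif11 and Mtfr2. The dim filter used the mean signal over all arrays, those at 120 mg/kg/day among them. A gene dim with vehicle could stay in through its signal at that dose, so this fit cannot speak for such genes. At 36 mg/kg/day leaving out an array gave 1 to 2 genes, and with ribociclib 0 to 1. For the higher against the lower abemaciclib dose, 36 genes became 19 with the actin covariate, 25 with only these groups in the fit and 19 to 37 without single arrays. The F test over the groups fell from 39 genes to 25 with the covariate. Against palbociclib, 39 genes became 29 with the covariate and 33 to 38 without single arrays, and against ribociclib 37 became 33 and 36 to 38. The cause of these moves was not tested. For the alternative fits, here and in the paragraphs above, the share of all genes called is not given. A loss of calls among these genes therefore cannot be told from a loss over all genes. With the letter as a replicate block, 36 genes passed at 120 mg/kg/day, 2 at 36, 33 between the abemaciclib doses, 38 against palbociclib and 38 in the F test. Signals near the array medians limit the folds of 15 genes.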
